A study of Danio rerio with 6 samples.

Results

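The genes described here code for 8 factors of nuclear mRNA export in zebrafish (Danio rerio): the THO complex subunits thoc1, thoc2, thoc3, thoc5, thoc6 and thoc7, and the export adaptors alyref and sarnp. They were chosen by gene symbol with no threshold on measured values, though with earlier results of these data known, and all 8 symbols were found among the 32520 genes of the deposited tables. RNA sequencing had been done on whole embryos at 3 days post fertilization, with 3 libraries of wild-type (WT) and 3 of bcas2 knockout (bcas2-KO) embryos, each from a pool of 10 embryos of 1 genotype. No strain and no allele of bcas2 is named in the labels, and the clutches are not stated, so the p-values measure only the spread between these pools. Per the series' design text, the study searched for differences between the genotypes in gene expression and in splicing. Transcript levels are reported here.

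The THO complex binds nascent transcripts and, together with the RNA helicase Ddx39b and adaptor proteins, forms TREX, the complex that couples transcription and splicing to export. Alyref, an RNA-binding adaptor of TREX, hands the mRNA to the export receptor Nxf1, which carries it through the nuclear pore. In human cells TREX is loaded onto mRNA largely in company with splicing, and the protein encoded by bcas2, the gene knocked out here, belongs to the Prp19 complex of the spliceosome.

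The targeted gene bcas2 (ENSDARG00000043631) had 916 to 1503 counts per WT library and 125 to 146 per bcas2-KO library, which matched the labels. Totals per library lay between 32822716 and 49526995 counts. Across the 22347 genes tested, 10.6% were called higher and 9.01% lower in bcas2-KO, at a Benjamini-Hochberg adjusted p under 0.05 in edgeR's quasi-likelihood test. With upper-quartile scaling the shares were 7.81% higher and 11.7% lower. WT library 1 and bcas2-KO library 3 stood apart in eye transcripts. The 7 lens markers summed to 147 and 134 CPM (counts relative to the TMM-scaled library total) in those 2 libraries and to 0.594 to 3.08 CPM in the other 4, where cryaa and crygm2d1 were at 0. The 6 photoreceptor markers summed to 176 and 62.1 CPM there and to 0.751 to 2.45 CPM elsewhere. Most of the 176 CPM came from rho (134 CPM). The markers opn1lw1 and pde6h had at most 3 and 6 counts in any library and did not follow the sum. The 4 markers of proliferating cells summed to 414 to 474 CPM in WT and 367 to 420 CPM in bcas2-KO, but did not move together. Among them pcna was called lower (log2 fold change -0.42) and ccnb1 higher (0.38), and mki67 and top2a did not pass. The 4 exocrine pancreas markers summed to 125 to 163 CPM in WT and 27.4 to 37.8 CPM in bcas2-KO. The part of these differences in the export genes was not tested, apart from a fit without the 2 libraries with eye transcripts. In whole embryos, fewer cells of a type and less RNA per cell cannot be told apart.

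Transcripts of 1 of the 8 genes, thoc1, rose in bcas2-KO, none fell, and 7 did not pass the test. Levels of 7 genes, all but thoc2, were nevertheless higher in every bcas2-KO library than in any WT library, with fold differences between 1.12 and 1.28. The share of genes called higher was 12.5% among the 8 and 10.6% among all genes tested, close to that background. Among all genes, 20.1% were separated in this direction. The median log2 fold change of the 8 genes, bcas2-KO over WT, was 0.26, against -0.02 over all genes tested. At an unadjusted p under 0.05, 6 of the 8 were higher and 0 lower. Of all 22347 genes tested, 17.5% were higher and 3776 genes were lower at that threshold. DESeq2 called 2 higher, thoc1 and alyref, and 0 lower, where it called 11.3% of all genes higher and 9.97% lower. Of the 10921 genes with a mean level within the range of the 8 genes, 17.0% were called higher by edgeR and the median log2 fold change was 0.05.

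The largest statistical support was for thoc1 (ENSDARG00000088246), which codes for a core subunit of THO. It had 26.7, 28.7 and 29.0 CPM in WT libraries 1 to 3 and 36.4, 34.8 and 35.3 CPM in bcas2-KO libraries 1 to 3. The genotypes were apart by more than the spread within either of them. The mean rose from 28.1 ± 1.29 to 35.5 ± 0.815 CPM (SD, n = 3 pools each), 1.26-fold, with a 95% interval of 1.12 to 1.42. This was a log2 fold change of 0.34 with an SE of 0.08 (edgeR adjusted p = 0.0161). The counts behind it were 1362, 1225 and 971 in WT and 1504, 1408 and 1149 in bcas2-KO. Leaving out WT library 2 ended the call (adjusted p = 0.0579, edgeR), as did leaving out bcas2-KO library 1 (0.0645) or both libraries with eye transcripts (0.0586), while the log2 fold change lay between 0.31 and 0.35 in those 3 fits.

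No difference past the test was found for thoc2 (ENSDARG00000037503), which codes for the large scaffold protein of THO. Its levels were 78.7, 71.1 and 66.0 CPM in WT and 71.1, 74.8 and 68.1 CPM in bcas2-KO. The genotypes overlapped, with the highest and the lowest library both WT. Means were 72.0 ± 6.40 and 71.3 ± 3.32 CPM, and the 95% interval of the fold change was 0.869 to 1.13 (log2 fold change -0.01 with an SE of 0.08, edgeR adjusted p = 0.934). The sign of this value near 0 turned with library totals as scaling (0.02), on leaving out WT library 1 (0.06) or bcas2-KO library 3 (0.02), and on leaving out both (0.10). The ratio of thoc1 to thoc2 in FPKM was 1.27, 1.52 and 1.66 in WT and 1.93, 1.75 and 1.95 in bcas2-KO. The ratios did not overlap between genotypes, and the exact permutation test (two-sided) gave p = 0.1, the smallest that 3 libraries against 3 allow, or 0.3 after adjustment over the 3 ratios tested. The pair joins the THO/TREX genes with the smallest and the largest edgeR p, and the adjustment does not cover that. Nothing further is read from this ratio.

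**Figure D1:**
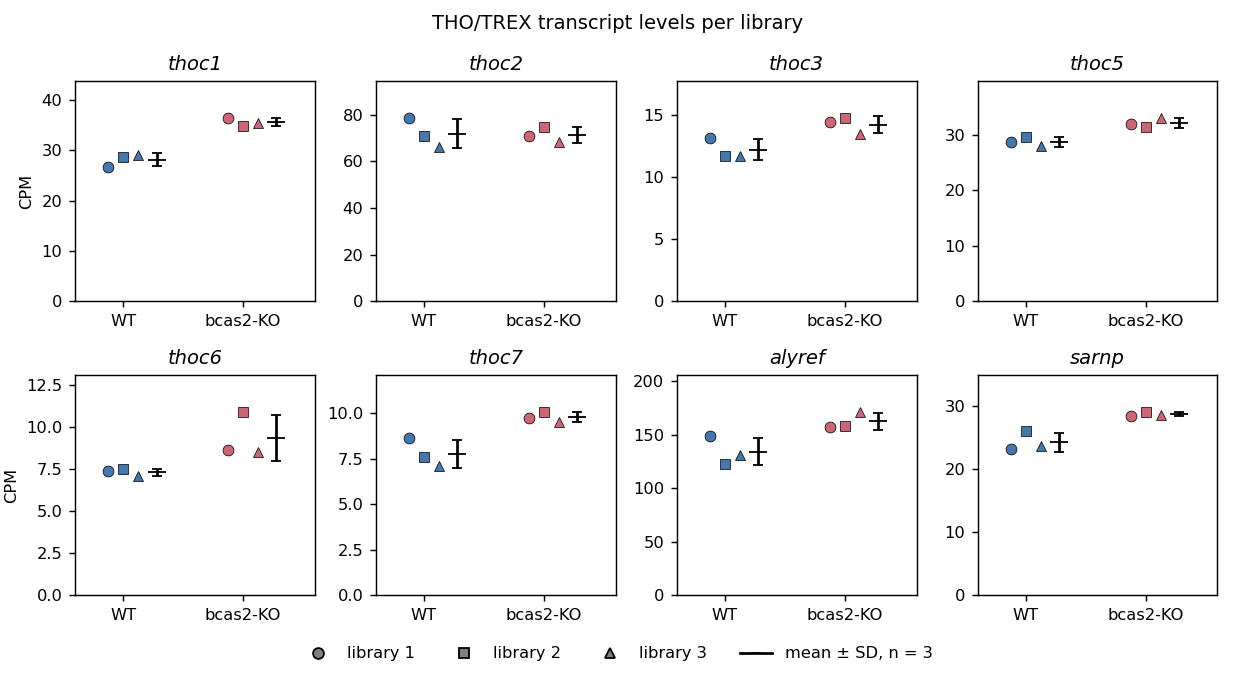
CPM of each of the 8 genes (y axes, from 0) in the WT and bcas2-KO libraries, with 1 symbol per library number and the mean ± SD of 3 pools beside them. The bcas2-KO libraries lie above the WT libraries in every panel but that of thoc2.

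The remaining THO genes had higher levels in each bcas2-KO library but did not pass the test over all genes. The gene thoc7 (ENSDARG00000015394), for a coiled-coil subunit, had 8.61, 7.57 and 7.09 CPM in WT and 9.76, 10.1 and 9.54 CPM in bcas2-KO. WT library 1, one of the pair with eye transcripts, was the highest WT value. The fold difference was 1.26 (95% interval 1.06 to 1.5, log2 fold change 0.33 with an SE of 0.11, edgeR adjusted p = 0.0615). Without WT library 1 the log2 fold change was 0.42 and passed (adjusted p = 0.0318). Without any other single library thoc7 did not pass (edgeR adjusted p = 0.114 to 0.18), nor without both libraries with eye transcripts (0.057).

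The gene thoc6 (ENSDARG00000037966), for a WD-repeat subunit, had 7.38, 7.50 and 7.09 CPM in WT and 8.62, 10.9 and 8.55 CPM in bcas2-KO. The WT pools had a coefficient of variation of 2.88%. The bcas2-KO pools had one of 14.5%, with library 2 above the other two. The fold difference was 1.28, the largest among the 8 genes, with a 95% interval of 1.05 to 1.55 (log2 fold change 0.36 with an SE of 0.12, edgeR adjusted p = 0.0736). Without that library the log2 fold change was 0.23 (adjusted p = 0.220).

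The gene thoc3 (ENSDARG00000056517), for another WD-repeat subunit, had 13.2, 11.7 and 11.7 CPM in WT and 14.4, 14.8 and 13.5 CPM in bcas2-KO. The highest WT library and the lowest bcas2-KO library, again those with eye transcripts, lay close together. The fold difference was 1.17 (95% interval 1.00 to 1.35, log2 fold change 0.22 with an SE of 0.10, edgeR adjusted p = 0.135).

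The gene thoc5 (ENSDARG00000038290), for the coiled-coil partner of the Thoc7 protein, had 28.6, 29.6 and 27.9 CPM in WT and 31.9, 31.3 and 33.1 CPM in bcas2-KO. Its pools were among the tightest, with coefficients of variation of 2.99% and 2.78%, near the 2.86% that counting error alone gives at its mean count. Its fold difference of 1.12 was the smallest of the 7 genes with separated genotypes (95% interval 0.992 to 1.26, log2 fold change 0.16 with an SE of 0.08, edgeR adjusted p = 0.170).

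Both adaptor genes showed the same separation. The gene alyref (ENSDARG00000077732) had 148, 123 and 131 CPM in WT and 157, 158 and 171 CPM in bcas2-KO. The libraries with eye transcripts, WT library 1 and bcas2-KO library 3, were the highest of their genotypes, and the genotypes did not overlap. The means were 134 ± 12.99 and 162 ± 8.0 CPM, a fold difference of 1.21 (95% interval 1.06 to 1.39, log2 fold change 0.27 with an SE of 0.09, edgeR adjusted p = 0.0545). In the 4 libraries without eye transcripts the log2 fold change was 0.32 and passed (adjusted p = 0.0477), as it did without WT library 1 alone (0.36, adjusted p = 0.0123). It did not pass without WT library 2 (0.203) or 3 (0.116), or without bcas2-KO library 1 (0.105), 2 (0.0962) or 3 (0.168). Upper-quartile scaling gave an edgeR adjusted p of 0.113. DESeq2 called alyref in all 6 libraries (adjusted p = 0.0342).

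The gene sarnp (ENSDARG00000059357) codes for an RNA-binding protein that in human cells joins TREX through the helicase DDX39B. It had 23.2, 26.1 and 23.7 CPM in WT and 28.6, 29.2 and 28.7 CPM in bcas2-KO. The bcas2-KO pools differed by a coefficient of variation of 1.16%, less than the 3.07% from counting error at its mean count, and the WT pools by 6.21%. The fold difference was 1.18 (95% interval 1.04 to 1.35, log2 fold change 0.24 with an SE of 0.08, edgeR adjusted p = 0.0654).

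**Figure D2:**
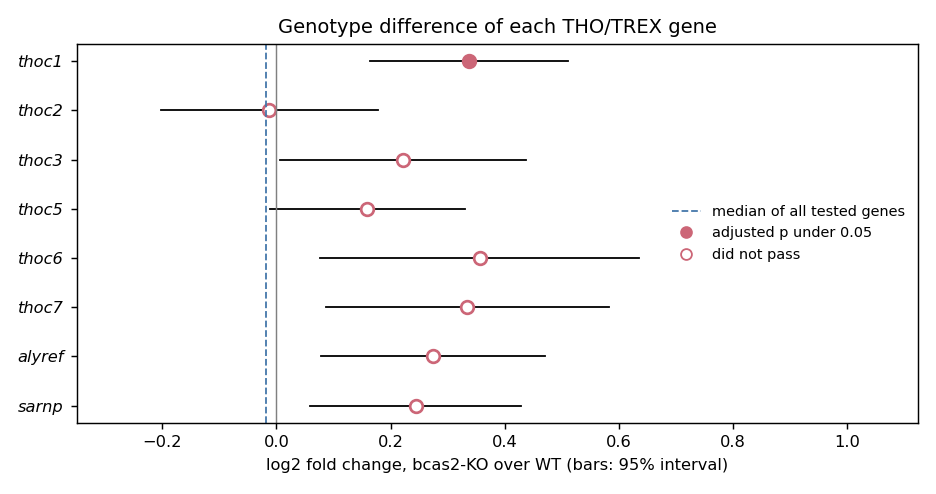
Log2 fold change of each gene, bcas2-KO over WT (x axis), with its 95% interval from edgeR, a filled point where the adjusted p was under 0.05, and the median of all tested genes as a dashed line. The filled point is thoc1 at 0.34, and thoc2 lies at -0.01 beside the median of -0.02.

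Per transcript length, the adaptors were more abundant than any THO subunit. In the deposited FPKM values, which are scaled for gene length and can be compared between genes, alyref was highest at 101 ± 8.76 FPKM in WT and 121 ± 5.49 FPKM in bcas2-KO. Then came sarnp at 44.6 ± 3.14 and 52.2 ± 0.672 FPKM, and thoc1 at 29.9 ± 1.66 and 37.3 ± 0.915 FPKM. These 3 levels were separated from each other and from all other members in both genotypes. The lowest levels were those of thoc5 (15.0 ± 0.519 and 16.6 ± 0.403 FPKM) and thoc6 (10.7 ± 0.322 and 13.5 ± 1.98 FPKM), which were also separated from their neighbours in the order.

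Between them lay thoc7, thoc2 and thoc3, whose order was not the same in the genotypes. In WT, thoc7 (22.2 ± 2.02 FPKM), thoc2 (20.3 ± 1.63) and thoc3 (18.3 ± 1.07) overlapped as neighbours. In bcas2-KO, thoc7 (27.7 ± 0.873 FPKM) was above both, and thoc3 (21.1 ± 1.06) and thoc2 (19.9 ± 0.984) overlapped with thoc3 having the higher mean. Among all tested genes, the mean FPKM of alyref was at the 95.8th percentile and that of thoc6 at the 63.5th, so all 8 genes were in the upper part of the range in these embryos. In CPM, which is not scaled for length, thoc2 came next after alyref.

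**Figure D3:**
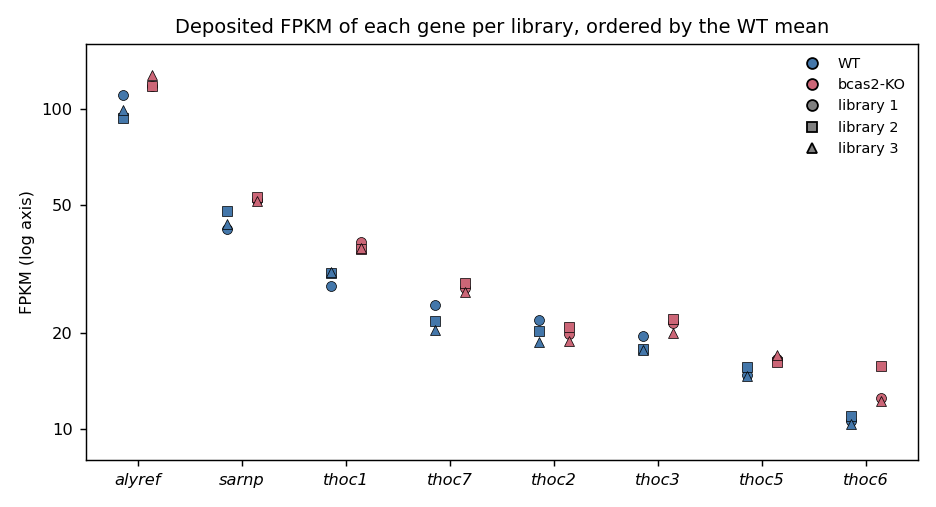
Deposited FPKM of each gene on a log axis, ordered by the WT mean, with 1 symbol per library. Values run from 10.4 FPKM for thoc6 in WT to 128 FPKM for alyref in bcas2-KO, and thoc2 is the gene whose genotypes overlap.

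The 6 THO subunits together summed to 119, 117 and 113 FPKM in WT and to 136, 140 and 132 FPKM in bcas2-KO, without overlap. Within that sum, the share of thoc2 was 18.4%, 17.2% and 16.6% in WT and 14.6%, 14.9% and 14.3% in bcas2-KO. It was the 1 share of 6 that did not overlap between genotypes, with 17.4 ± 0.921% against 14.6 ± 0.285% (exact permutation test, two-sided, p = 0.1, the smallest possible with 3 against 3, and 0.6 after adjustment over the 6 shares). The share of thoc1 was 25.7 ± 2.05% in WT and 27.4 ± 1.11% in bcas2-KO and overlapped (exact permutation p = 0.3). The level of alyref was 5.23 ± 0.397 times the mean THO subunit in WT and 5.36 ± 0.396 times in bcas2-KO (exact permutation p = 0.8). For sarnp the ratio was 2.30 ± 0.175 and 2.30 ± 0.0458 (exact permutation p = 1). These shares and ratios are not independent of the fold changes above.

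Among 13370 other genes with a symbol and a mean of at least 5 CPM, the 5 whose levels over the 6 libraries lay closest to those of thoc1 were senp2, adcy9, chuk, cnep1r1 and ctr9. Closeness was measured as the Euclidean distance between log2 CPM values centred on each gene's mean, which was 0.0353 for senp2 and between 0.0634 and 0.0685 for the other 4. The SUMO protease gene senp2 had 23.4, 25.4 and 25.7 CPM in WT and 32.2, 31.1 and 30.5 CPM in bcas2-KO, with WT library 1 lowest and bcas2-KO library 1 highest, as for thoc1. All 5 were among the genes tested and were called higher. Since they were picked for this pattern, nothing is read from those calls.

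Other genes of the export route were compared in lists by role. Of 42 measured genes in 6 lists, 10 rose in bcas2-KO, 2 fell and 30 did not pass, which is 28.6% called. This is near the 25.8% called among the genes within the range of levels of the 8 THO/TREX genes. By direction, 17.0% of the genes in that range were called higher and 8.77% lower, beside 10 and 2 of the 42 export genes. Some of the 42 genes, such as nxf1a and cetn2, lie below that range. Of all genes tested, 19.6% were called. The median log2 fold change of the 42 export genes was 0.14. The number that rose moved with the libraries, as did the share of all genes called higher. It was 2 without WT library 2 (4.48% of all genes), 3 without bcas2-KO library 1 (5.18%), 4 without bcas2-KO library 3 (6.28%) or WT library 3 (7.32%) and 6 without bcas2-KO library 2 (7.61%), against 13 without WT library 1 (12.5%). Leaving out the pair with eye transcripts gave 6 (9.14%), and upper-quartile scaling gave 5 (7.81%). The number that fell was 0 or 1 in every fit that left out a library. Of the 12 called genes, ddx39b and rbm26 kept their call under all 17 alternatives. Over all genes tested, the backgrounds for the counts of each list are 10.6% higher and 9.01% lower by edgeR. They are 11.3% higher and 9.97% lower by DESeq2. At an unadjusted p under 0.05, 17.5% were higher and 3776 of the 22347 genes lower. Each list holds 3 to 13 measured genes, and nothing is read from its counts about the list as a whole.

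Among 8 measured partners of THO within TREX, 3 rose (37.5%, against 10.6% of all genes and 17.0% of those at the levels of the 8 THO/TREX genes) and 0 fell by edgeR, with 5 higher and 0 lower at an unadjusted p under 0.05 and 4 higher and 0 lower by DESeq2. The median log2 fold change was 0.24. The helicase gene ddx39b had 16.8, 18.0 and 15.7 CPM in WT and 23.2, 23.5 and 22.7 CPM in bcas2-KO. Its lowest bcas2-KO library was above its highest WT library, and it rose 1.38-fold (log2 fold change 0.46 with an SE of 0.09, edgeR adjusted p = 0.00716). The related helicase gene ddx39aa rose 1.19-fold (adjusted p = 0.0410), but not once WT library 2 or 3 was left out, or any 1 bcas2-KO library, or the pair with eye transcripts (adjusted p = 0.0559 to 0.140). In all 6 libraries ddx39aa did not pass with upper-quartile scaling (0.0995, edgeR), library totals (0.0592, edgeR) or limma (0.0505 to 0.0619). The third helicase gene, ddx39ab, named after its values were seen, was the most abundant of them at 217 ± 6.16 FPKM in WT and 226 ± 13.6 FPKM in bcas2-KO, with a fold difference of 1.05 (adjusted p = 0.534). These 3 genes are similar in sequence. Their values are uncertain, since the sources used here do not state how reads matching more than 1 gene were treated. The zinc finger gene zc3h11a rose 1.26-fold (adjusted p = 0.0196, and 0.0664 to 0.0898 once WT library 2 or either of bcas2-KO libraries 1 and 2 was left out). With limma on unfiltered FPKM zc3h11a did not pass (adjusted p = 0.0519). The adaptor gene poldip3 (1.25-fold) and erh (1.18-fold) did not pass, both at an adjusted p of 0.0521. Both passed without WT library 1 (0.0392 and 0.0432), and poldip3 also passed by DESeq2 (0.0299). In edgeR poldip3 passed with RLE factors (0.0495), library totals (0.0430), no filter on low counts (0.0347) and the replicate number as a block (0.0253).

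**Figure D4:**
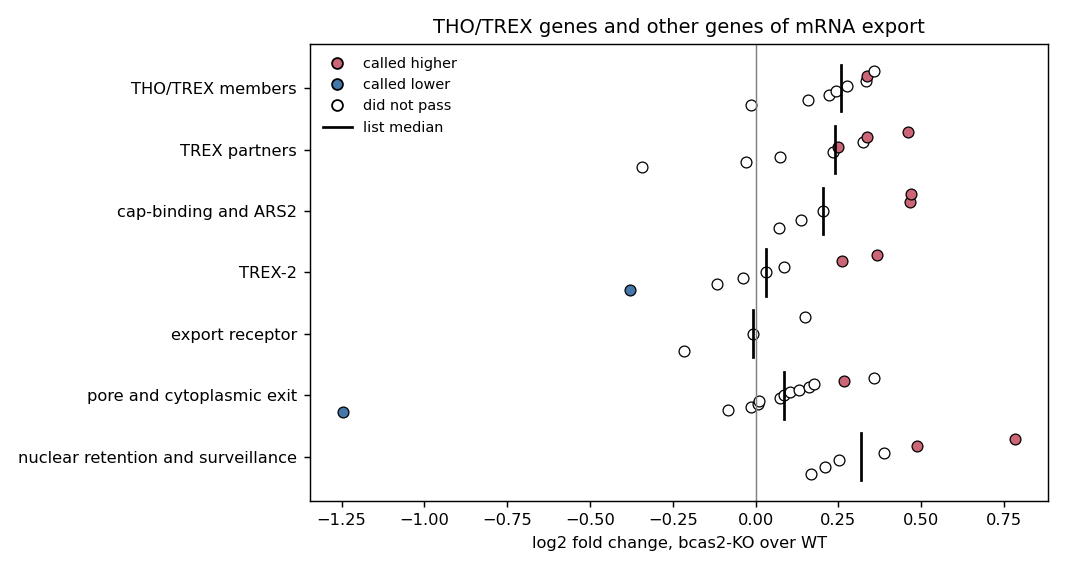
Log2 fold changes, bcas2-KO over WT (x axis), of the 8 THO/TREX genes and of 6 lists of other export genes, with 1 point per gene, filled where called, and the list median as a vertical bar. List medians run from -0.01 for the export receptor to 0.32 for nuclear retention and surveillance.

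At the cap of the transcript, 2 of 5 measured genes rose (10.6% of all genes did) and 0 fell by edgeR, with 2 and 0 at an unadjusted p under 0.05 and by DESeq2 (median log2 fold change 0.20). They were srrt, for the Ars2 protein that binds the nuclear cap complex (1.38-fold, adjusted p = 0.0422, edgeR), and phax, for the export adaptor of snRNAs (1.38-fold, adjusted p = 0.0490). Both calls were lost without any 1 of WT libraries 2 and 3 and bcas2-KO libraries 1, 2 and 3, with adjusted p up to 0.149 and 0.163. In all 6 libraries they were also lost with upper-quartile scaling (0.0686 and 0.0771, edgeR) and library totals (0.0713 and 0.0647, edgeR). With limma neither passed (0.0583 to 0.0783 and 0.0595 to 0.0812). The call of phax, but not that of srrt, was also lost with a minimum count of 50 and with the replicate number as a block (edgeR adjusted p = 0.0538 in each). The gene zc3h18 had a fold difference of 1.10 (adjusted p = 0.188) and the cap-binding protein gene ncbp2 had a log2 fold change of 0.20 (adjusted p = 0.255).

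In TREX-2, the complex that tethers export to the pore, 2 of 7 genes rose and 1 fell, against 10.6% and 9.01% of all genes (median log2 fold change 0.03). The gene leng8, whose human protein is related to the TREX-2 scaffold, had 126, 117 and 118 CPM in WT and 162, 154 and 149 CPM in bcas2-KO, with no overlap, and rose 1.29-fold (adjusted p = 0.00880, edgeR, and 0.0529 without WT library 2). The scaffold gene mcm3ap rose 1.20-fold (adjusted p = 0.0351), a call lost when any single library was left out (0.0513 to 0.106). With upper-quartile scaling (0.0832, edgeR) and with limma (0.0892 to 0.107) mcm3ap did not pass either. The centrin gene cetn3 had a log2 fold change of -0.38 (adjusted p = 0.0465), also lost without any single library (0.0923 to 0.137) and by DESeq2 (0.0583). Nor did cetn3 pass in edgeR with library totals (0.109) or no filter on low counts (0.0738), or with limma (0.0743 to 0.0902). The proteasome and TREX-2 subunit gene sem1 (1.06-fold, adjusted p = 0.510) and cetn2 (log2 fold change -0.12, adjusted p = 0.652) did not pass.

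Of the export receptor, 0 of 3 measured genes were called by edgeR or DESeq2, and 0 reached 0.05 before adjustment. Their median log2 fold change was -0.01. The receptor gene nxf1b (nxf1 in the deposited table) had 67.4, 57.2 and 54.8 CPM in WT and 55.0, 54.4 and 44.8 CPM in bcas2-KO. The genotypes overlapped slightly in CPM. In FPKM they were just apart, with the lowest WT library at 18.9 and the highest bcas2-KO library at 18.7. The 95% interval of the fold change was 0.728 to 1.02 (log2 fold change -0.22 with an SE of 0.11, edgeR adjusted p = 0.184). The libraries with eye transcripts held the highest WT and the lowest bcas2-KO level. The log2 fold change was -0.12 on leaving out WT library 1, -0.13 on leaving out bcas2-KO library 3 and -0.03 on leaving out both. The related nxf1a had 5 to 15 counts per library, and no difference was detectable at this depth (adjusted p = 0.849).

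At the pore and its cytoplasmic face, 1 of 13 genes rose and 1 fell, against 10.6% and 9.01% of all genes (median log2 fold change 0.09). The nucleoporin gene nup88 rose 1.20-fold (adjusted p = 0.0450, edgeR), but not once WT library 2 or 3 was left out, or bcas2-KO library 1 or 3, or the pair with eye transcripts (0.0742 to 0.153). In all 6 libraries nup88 did not pass with upper-quartile scaling (0.0986, edgeR), library totals (0.0512, edgeR) or limma (0.0560 to 0.0709). A gene of the Ddx19 helicase family (ENSDARG00000044325) had 56, 68 and 52 counts in WT and 22, 21 and 24 counts in bcas2-KO, a low level, and fell with a log2 fold change of -1.25 (SE 0.27, adjusted p = 0.0125, edgeR). It did not pass without WT library 2 (0.0624) or bcas2-KO library 1 (0.0573), and its family holds a similar gene, so its counts are uncertain. The genes nup42 (1.28-fold, adjusted p = 0.0508) and nup50 (1.12-fold, adjusted p = 0.148) did not pass. In edgeR nup42 passed without WT library 1 (0.0331) and with RLE factors (0.0498). It also passed with limma on FPKM of at least 0.5 (0.0494 and 0.0496), but in no other alternative.

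In the list for nuclear retention and surveillance, 2 of 6 genes rose (10.6% of all genes did) and 0 fell by edgeR. At an unadjusted p under 0.05, 5 were higher (17.5% of all genes) and 0 lower, and DESeq2 called 2 higher and 0 lower. The median log2 fold change was 0.32. The gene rbm26, whose human protein takes part in the nuclear decay of polyadenylated RNA, had 33.3, 27.7 and 27.0 CPM in WT and 48.4, 47.5 and 55.9 CPM in bcas2-KO. The libraries with eye transcripts were the highest of their genotypes, and the groups did not overlap. It rose 1.72-fold, more than any other named gene of these lists (log2 fold change 0.78 with an SE of 0.11, edgeR adjusted p = 0.00146). The gene nrde2, whose human protein binds the helicase of nuclear RNA decay, rose 1.40-fold (adjusted p = 0.0292), and did not pass once WT library 2 or 3 was left out, or bcas2-KO library 1 or 3, or the pair with eye transcripts (0.0775 to 0.120). With limma on all 6 libraries nrde2 did not pass either (0.0915 to 0.111). The poly(A)-binding protein gene zc3h14 (1.19-fold, adjusted p = 0.0587) and rbm27 (1.31-fold, adjusted p = 0.0672) did not pass. Without bcas2-KO library 2, rbm27 passed (edgeR adjusted p = 0.0191), but in no other alternative.

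Across all 17 alternatives to the main setting, thoc1, thoc3, thoc5, thoc6, thoc7, alyref and sarnp kept a positive log2 fold change. The values of thoc1 lay between 0.28 and 0.38, those of alyref between 0.21 and 0.36, and those of sarnp between 0.18 and 0.30. Only thoc1, thoc7 and alyref were called in any of these fits, and only thoc2 changed sign.

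**Figure D5:**
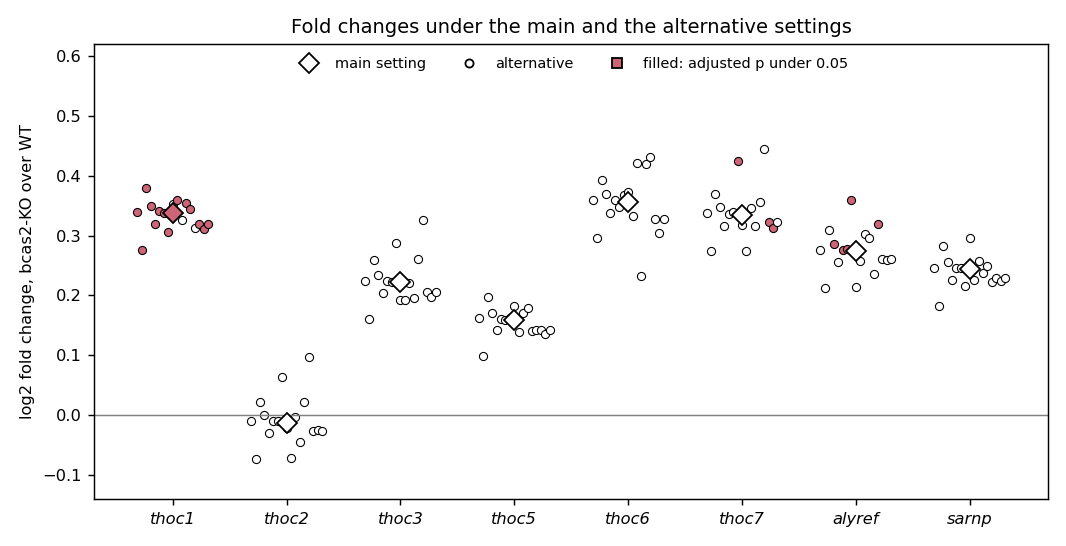
Log2 fold change of each gene (y axis), bcas2-KO over WT, in the main setting (diamond) and in 17 alternatives (circles), filled where the adjusted p was under 0.05. The points of thoc2 scatter around 0 from -0.07 to 0.10, and those of the other 7 genes lie above 0.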

How the data were processed

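The counts used are the authors' deposited reads per Ensembl gene, not normalized, and the FPKM values are the authors' deposited levels per length for those genes. Per the submitters' processing notes, the build was GRCz11 and the tools included STAR 2.6.1a, featureCounts 1.6.0 and StringTie 1.3.3b, with no role stated. Per the labels, the NEBNext Ultra kit was used, which as named does not mark strand, so a gene cannot be separated from one that overlaps it on the other strand. Columns were matched to samples by the labels.

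Genes were kept by filterByExpr at a minimum count of 10, scaled by TMM and tested for genotype with the quasi-likelihood test of edgeR 4.0.16 (two-sided, robust) in R 4.3.3. The p-values were adjusted over all 22347 genes. CPM values were computed from counts and TMM factors, and FPKM values were used for levels between genes. Intervals of fold changes are at 95% from the fit. Alternatives used DESeq2 1.42.0 and limma 3.58.1 (log2 of FPKM plus 0.1 or 1), other scalings and filters, a replicate block and left-out libraries. The test was first run on simulated counts with known changes. All of these were larger than the fold differences of the THO/TREX genes, so that run does not show whether differences of their size are found. Library pairs within a genotype gave a chi-square per degree of freedom of 12.7 to 34.4, so none was a copy.

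The 8 genes and the lists were chosen with earlier results of these data known. List members named are the called ones (up to 4 by p) and 2 others with the smallest p. Symbols absent from the FPKM table were matched through Ensembl symbols, and the 49 listed symbols gave 42 measured genes. No gene was matched for fyttd1, ncbp1, nxt1, nxf3, ddx19b, nupl2, nup62 and zfc3h1. The symbols ddx19a and tpr each matched 2 genes, and chtop and chtopa matched the same gene. None of the 8 genes is on the chromosome of bcas2 in the RefSeq gene table of GRCz12tu, which was used for gene placement only. No protein or promoter sequence was analysed here.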

Additional observations from a re-analysis of the deposited data

How the results depend on the processing

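With one library left out at a time, the log2 fold change of thoc1 was 0.31 to 0.36, of thoc2 -0.0719 to 0.0631, of thoc7 0.27 to 0.42 and of alyref 0.21 to 0.36. The number of the 8 genes called higher was 0 to 3, of export partners 2 to 13 higher and 0 to 1 lower, and of all genes 1013 to 2813 higher and 717 to 2358 lower. In the 4 libraries without eye transcripts thoc1 (0.31, adjusted p = 0.0586, edgeR) lost its call, alyref (0.32) gained one, thoc2 was at 0.10, and 6 partners were called higher and 1 lower. With library totals thoc2 was at 0.0226 and 1 partner was lower. The gene alyref was also called with no filter on low counts (0.29, adjusted p = 0.0434), with DESeq2 (0.28), and with the replicate number as a block (0.28, adjusted p = 0.0415). Each of these 3 fits called 2 of the 8 genes higher, and 1 partner was lower with no filter, with DESeq2 and with a minimum count of 50. Same-numbered libraries did not all move together. Their deviations from genotype means had correlations across genes of -0.105, 0.447 and 0.0265 for libraries 1, 2 and 3. Across numbers, WT library 1 with bcas2-KO library 3 had 0.212, and WT library 3 with bcas2-KO library 1 had 0.209. The other pairs lay between -0.33 and -0.131. The fit with the block called 2604 of all genes higher and 2318 lower. With limma on FPKM of at least 0.5, thoc7 was called at a pseudocount of 0.1 (0.32) and of 1 (0.31), with 2 of the 8 genes and 5 partners higher and 1 lower in each. Without that filter 3 partners were higher and 1 lower. Upper-quartile factors gave 5 partners higher. The partner nxf1a, at 5 to 15 counts, had -0.0639 to 0.52 with one library left out, negative without WT library 3 (-0.0639) or bcas2-KO library 1 (-0.0563). Of the 421 values of the 25 named partners under alternatives, 325 kept direction and side of the threshold, 82 lost the call and 12 gained one. The cause was not tested. A fit that leaves out a library changes both the number of libraries and which ones remain. For the 8 genes, counting error was at most 5.46% of the mean. It is not the limit of detection, because the fit also counts the spread between pools. In the main setting, log2 fold changes of 0.356 in thoc6 and 0.3346 in thoc7 did not pass (edgeR adjusted p = 0.0736 and 0.0615). Neither did the smaller ones of thoc3, thoc5, alyref and sarnp. The other results, including bcas2, stayed on their side of the threshold.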
